A study of Mus musculus with 12 samples.

Results

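The genes described here are 10 feedback regulators of MAP kinase signalling, chosen by gene name from the 78298 genes of the deposited tables: the dual-specificity phosphatase genes Dusp1, Dusp4, Dusp5, Dusp6, Dusp7 and Dusp10, the Sprouty genes Spry1, Spry2 and Spry4, and the Sprouty-related gene Spred1. Each matched 1 row, and all 10 passed the filter on low counts. The RNA came from C2C12, a mouse myoblast cell line, in 2 genotypes of 6 libraries each: wild type (WT) and RGECO, which carries a genetically encoded calcium indicator. Cells of both genotypes were kept on methacrylated gelatin hydrogel for 14 days of differentiation, after growth with 10% fetal bovine serum. The labels give the differentiation medium as 10% horse serum with 50 ng/ml IGF-1 and 1 mg/ml aminocaproic acid. IGF-1 activates a receptor tyrosine kinase, and it was present in both groups. How the RGECO line was made, and whether it is a single clone, is not given in the sources used here, so the indicator and any other difference between the lines cannot be told apart.

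MAP kinases (ERK, p38 and JNK) are switched on by phosphorylation downstream of growth factor receptors and stress, and ERK activity induces the transcripts of its own inhibitors. MAP kinase phosphatases, products of the Dusp genes, remove the activating phosphates. Sprouty and Spred proteins act upstream, between receptor and Raf. In muscle cells, growth factor signalling through ERK keeps myoblasts proliferating, while p38 activity promotes differentiation.

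RGECO replicate 4 held 825 counts, with 0 for each of the 10 genes, and does not enter the comparisons. The other 11 libraries held 5881622 (RGECO replicate 5) to 11926220 counts, so levels compare 6 WT with 5 RGECO libraries. Levels are in CPM, counts scaled to the library total with TMM factors, except where TPM, a transcript abundance corrected for length, is named. Means carry the SD over n = 6 WT and n = 5 RGECO libraries, and log2 fold changes (RGECO minus WT) carry their SE. The lines were compared by the quasi-likelihood test of edgeR, p-values were adjusted by Benjamini-Hochberg over 13318 genes, and the threshold was an adjusted p of 0.05. Whether replicates were separate cultures is not in the labels. The p-values therefore cover only the spread among these libraries, which may be technical. Markers of myotubes summed to 9763 to 11162 TPM in WT and 11587 to 16112 TPM in RGECO, most of it Acta1. Acta1 itself gave no call (log2 fold change 0.22, edgeR adjusted p = 0.448). Of 10 myotube markers tested 1 rose and 2 fell, beside 3.42% and 4.93% of all genes tested. Of 9 tested fibroblast markers 1 rose and 5 fell, with summed levels of 1561 to 2693 TPM in WT and 1152 to 1561 TPM in RGECO, and of 10 markers of cycling cells 0 rose and 3 fell, with sums of 101 to 208 and 94.1 to 158 TPM. Of 10 markers of undifferentiated or reserve myoblasts 2 rose and 2 fell, with sums of 893 to 1195 and 994 to 1256 TPM. The median log2 fold change was -0.55 for cycling markers (all 10 negative) and -0.77 for fibroblast markers (8 of 9 negative). It was 0.08 for myotube and 0.06 for reserve myoblast markers, beside -0.01 for all genes tested. Endothelial markers summed to at most 3.55 TPM. Macrophage markers summed to 24.1 to 34.4 TPM in WT and 20.0 to 41.4 TPM in RGECO, most of it Cd68, and neuron markers to 33.8 to 49.8 and 39.996 to 67.1 TPM, most of it Stmn2. Listed markers with no count in these 11 libraries were Emcn and Tie1 (endothelial), Adgre1 and Fcgr1 (macrophage) and Rbfox3, Snap25, Chat and Slc18a3 (neuron). Others of these lists were detected at low levels, such as Vwf (up to 3.24 TPM), Cd14 (3.85 TPM), Lyz2 (2.51 TPM) and Isl1 (1.20 TPM). The part of these shifts in the results below was not tested, and in bulk RNA fewer cells of a type and less RNA per cell cannot be told apart.

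The promoters of Dusp1, which rose in RGECO, and of Dusp5, which fell, are shown because each holds a longer motif that the other lacks. Each run is the 250 bases before the RefSeq transcript start, 5′ to 3′ on the strand of the gene (GRCm38.p6). Dusp1 is at chr17:26508473-26508722 on the minus strand and Dusp5 at chr19:53528895-53529144 on the plus strand. Capitals mark a cyclic AMP response element (TGACGTCA) in Dusp1, and in Dusp5 a pair of CArG boxes, the letters recognised by serum response factor (SRF).
Dusp1: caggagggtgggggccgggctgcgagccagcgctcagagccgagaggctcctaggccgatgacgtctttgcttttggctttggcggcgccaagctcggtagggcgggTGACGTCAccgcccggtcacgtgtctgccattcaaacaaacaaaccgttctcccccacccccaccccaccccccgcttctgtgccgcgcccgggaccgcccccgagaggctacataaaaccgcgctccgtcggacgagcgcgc
Dusp5: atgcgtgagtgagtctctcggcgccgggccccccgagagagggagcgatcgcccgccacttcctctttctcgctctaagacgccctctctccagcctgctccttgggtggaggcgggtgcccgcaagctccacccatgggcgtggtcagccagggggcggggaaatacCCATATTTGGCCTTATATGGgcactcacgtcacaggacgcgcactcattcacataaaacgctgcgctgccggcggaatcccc
The Dusp1 element lies 143 to 136 bases before the start, and the Dusp5 boxes lie 82 to 73 and 72 to 63 bases before it, next to each other. On both strands, the element occurred in 1.55% and the CArG box in 1.47% of the 32851 promoter windows of the same length in the table. RefSeq windows matched 8 of the 10 genes, all but Dusp4 and Spry4, though the bases after the Spred1 window matched no annotated transcript of the gene in GENCODE M21. Among these 8 the element was in Dusp1 alone and the CArG box in Dusp5 alone. The AP-1 letters TGANTCA (6.75% of windows), the ETS letters CCGGAA (12.03%) and the EGR letters GCGNGGGCG (4.70%) were in 0 of the 8 windows. Of the other letters searched, the short form TGACG, which the full element contains, was in Dusp1 and Dusp5 (17.8% of windows). CACGTG (a form of the E-box) was in Dusp1 (6.02%) and CAGGAT (an ETS core) in Spry1 (13.6%). The exact letters TATAAA (a form of the TATA box) were in 0 of the 8 (12.4%), and variants of these letters were not sought. These matches describe letters and do not show that a factor was bound.

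Of the 10 genes, 4 passed the threshold, against 8.35% of all genes tested. The 10 genes and the lists below were chosen with earlier results of these data known. Their shares beside those of all genes are therefore a description and no test of enrichment. Dusp1 and Dusp4 were higher in RGECO (3.42% of all genes) and Dusp5 and Spry1 were lower (4.93% of all genes). In the same 4 genes the CPM ranges of the lines did not overlap, which held for 7.97% of all genes (3.47% higher and 4.5% lower in RGECO). Under the alternatives, in which 3 or 4 of the 10 genes were called, the share of all genes called was 8.35% with DESeq2 size factors in edgeR, 12.6% with DESeq2, 3.67% without the low-count filter, 6.31% with all 12 libraries and 5.83% with the replicate number as a term. It was 4.54% with limma on log2(TPM + 1), 4.41% on log2(TPM + 0.1), 0.885% on log2(TPM + 1) without a filter, 20.9% with the mitochondrial share as covariate and 17.1% with the Malat1 share. The median log2 fold change of the 10 genes was -0.12, beside -0.01 for all genes tested, and for all 6 genes that did not pass the 95% interval lay inside 2-fold in either direction.

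**Figure D1:**
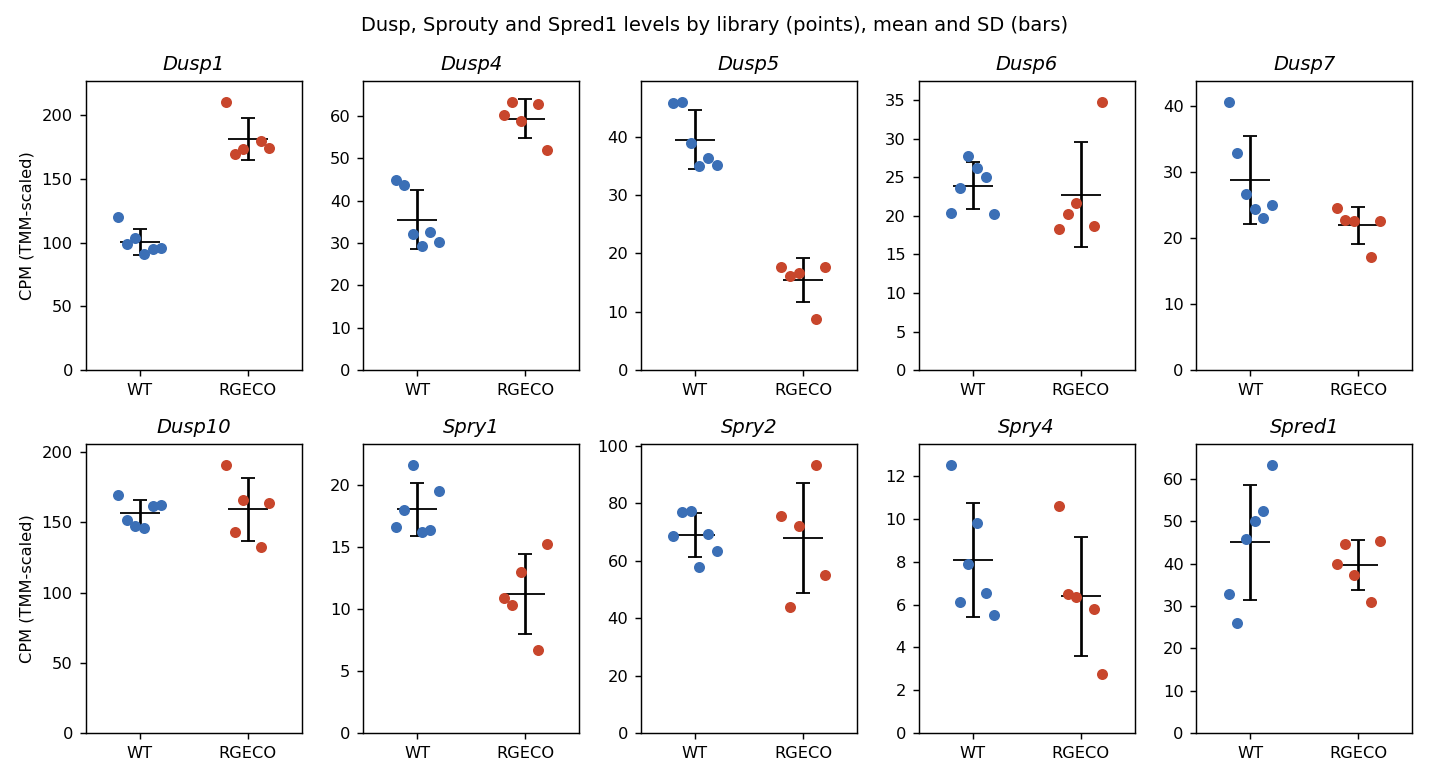
TMM-scaled CPM (vertical axis, from 0, a separate scale for each gene) of the 10 genes in 6 WT (blue) and 5 RGECO (red) libraries; points are libraries, and the black bars give the mean and SD of each line. The lines do not overlap in Dusp1, Dusp4, Dusp5 and Spry1, and they overlap in the other 6 genes.

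Dusp1, Dusp4 and Dusp5 encode inducible phosphatases of the nucleus. DUSP1 acts on ERK, p38 and JNK, DUSP4 acts on ERK and JNK, and DUSP5 is selective for ERK. These 3 genes moved in opposite directions. Dusp1 (ENSMUSG00000024190, chromosome 17: 26505590 to 26562128, GRCm38, GENCODE M21) ranged in WT from 91.0 CPM through a median of 97.3 to 120 CPM. In RGECO replicates 1, 2, 3, 5 and 6 it was 210, 169.5, 174, 179 and 174 CPM. Every RGECO library lay above every WT library, with replicate 1 the highest. The means were 101 ± 10.4 CPM and 181 ± 16.4 CPM, a log2 fold change of 0.85 ± 0.10 (edgeR adjusted p = 8.82e-05), or 1.80-fold. The annotated Dusp1 locus shares exonic bases with Ergic1 on the opposite strand, and strand use is not given in the sources used here. The same holds for Dusp5 with AC137853.2 and for Spry1 with Gm42922, whose part in the counts was not tested. Ergic1, a gene of the early secretory pathway, was at 148 ± 16.4 CPM in WT and 188 ± 22.9 CPM in RGECO (log2 fold change 0.34, adjusted p = 0.0690), and its part in the Dusp1 counts was not tested.

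Dusp4 (ENSMUSG00000031530, chromosome 8: 34807297 to 34819894, GRCm38) ranged in WT from 29.3 CPM through a median of 32.4 to 44.9 CPM. In RGECO replicates 1, 2, 3, 5 and 6 it was 60.1, 63.1, 58.8, 62.7 and 51.9 CPM. The lowest RGECO library, replicate 6, was above the highest WT library, replicate 1. Dusp4 rose by a log2 fold change of 0.74 ± 0.13 (adjusted p = 0.00270), or 1.67-fold, from 35.5 ± 6.95 CPM to 59.3 ± 4.51 CPM.

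Dusp5 (ENSMUSG00000034765, chromosome 19: 53529109 to 53542431, GRCm38) had the largest difference of the 10. It ranged in WT from 34.9 CPM through a median of 37.6 to 45.8 CPM. In RGECO replicates 1, 2, 3, 5 and 6 it was 17.7, 16.1, 16.6, 8.75 and 17.7 CPM. The highest RGECO libraries stayed below every WT library, and replicate 5, the shallowest of the 11 libraries with 50 Dusp5 counts, was the lowest. Dusp5 fell from 39.5 ± 5.11 CPM to 15.4 ± 3.77 CPM, a log2 fold change of -1.35 ± 0.17 (adjusted p = 1.69e-04), or 2.55-fold lower in RGECO. Without RGECO replicate 5 the log2 fold change was -1.21 (adjusted p = 8.80e-05).

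Because the 3 genes moved apart, their proportions within a library differed between the lines. On TPM, Dusp5 made up 18.1% to 21.8% of the summed level of the 3 genes in WT libraries and 2.99% to 6.16% in RGECO libraries. Dusp1 made up 59.5% to 68.0% and 75.0% to 79.3%. The ratio of Dusp1 to Dusp5 TPM was 3.36 ± 0.344 in WT and 16.3 ± 5.53 in RGECO, where its lowest value was 12.6 against a highest WT value of 3.76. The ratio of Dusp1 to Dusp4 TPM was 4.23 ± 0.624 and 4.44 ± 0.512, with overlapping ranges. These ratios combine genes already compared above and were not tested.

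**Figure D2:**
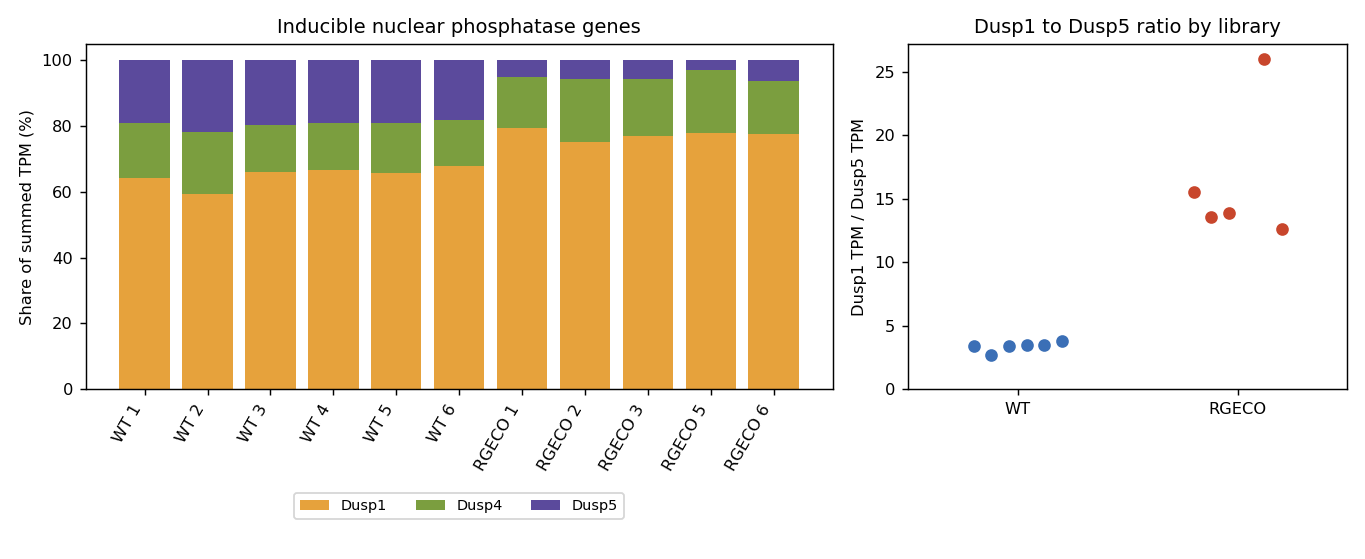
Left, share of the summed TPM of Dusp1, Dusp4 and Dusp5 (percent) in each of 11 libraries; right, the ratio of Dusp1 TPM to Dusp5 TPM by library (axis from 0). Dusp5 is 18.1% to 21.8% of the sum in WT and 2.99% to 6.16% in RGECO, and the ratio is at most 3.76 in WT and at least 12.6 in RGECO.

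Dusp6 and Dusp7 encode ERK-selective phosphatases of the cytoplasm, and Dusp6 is widely used as a transcript readout of ERK activity. Neither passed the threshold. Dusp6 (chromosome 10: 99263231 to 99267489, GRCm38) ranged in WT from 20.3 CPM through a median of 24.4 to 27.7 CPM. In RGECO replicates 1, 2, 3, 5 and 6 it was 18.2, 20.3, 21.7, 18.7 and 34.7 CPM. RGECO replicate 6 was above every WT library and the other 4 lay below the WT median, so the lines overlapped. The log2 fold change was -0.07 ± 0.17 (adjusted p = 0.881), with a 95% interval of 0.738-fold to 1.24-fold. Dusp7 (chromosome 9: 106368632 to 106375724, GRCm38) was 28.8 ± 6.70 CPM in WT and 21.9 ± 2.79 CPM in RGECO. Its log2 fold change of -0.39 ± 0.16 had an adjusted p of 0.170 and an interval of 0.600-fold to 0.972-fold. WT replicates 1 and 2, at 40.6 and 32.9 CPM, were the highest libraries for Dusp7, and WT replicates 4 and 5 lay inside the RGECO range.

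Dusp10 (chromosome 1: 184013302 to 184075636, GRCm38) encodes a phosphatase that prefers p38 and JNK. Its level was 156.5 ± 9.42 CPM in WT and 159 ± 22.5 CPM in RGECO, a log2 fold change of 0.03 ± 0.10 (adjusted p = 0.924). Its interval, 0.873-fold to 1.19-fold, was the narrowest of the 10 genes on the log2 scale apart from that of Dusp1. The sign of this small difference turned with all 12 libraries and without RGECO replicate 1 (log2 fold change -0.0487 and -0.0458).

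The Sprouty genes encode inhibitors of growth factor receptor signalling. Spry1 (ENSMUSG00000037211, chromosome 3: 37639947 to 37644598, GRCm38), which in muscle is known for its part in satellite cell quiescence, ranged in WT from 16.2 CPM through a median of 17.3 to 21.6 CPM. In RGECO replicates 1, 2, 3, 5 and 6 it was 10.9, 10.3, 13.0, 6.65 and 15.2 CPM. All 5 RGECO libraries lay below the WT libraries, with replicate 6 close to the lowest of them. The log2 fold change was -0.68 ± 0.19 (adjusted p = 0.0391), 1.60-fold lower in RGECO. This call was lost without WT replicate 1, 3, 5 or 6 (adjusted p = 0.0586, 0.0884, 0.0615 and 0.0696), without RGECO replicate 1, 2, 3 or 5 (adjusted p = 0.0789, 0.101, 0.0525 and 0.0577), and on log2(TPM + 1) with limma (log2 fold change -0.55, adjusted p = 0.161).

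Spry2 (chromosome 14: 105891947 to 105896819, GRCm38) was the most abundant Sprouty gene. It ranged from 57.6 CPM through a median of 68.96 to 77.3 CPM in WT and was 75.5, 43.9, 72.2, 93.3 and 54.9 CPM in RGECO replicates 1, 2, 3, 5 and 6. The RGECO libraries thus fell on both sides of the WT range. The log2 fold change was -0.02 ± 0.16 (adjusted p = 0.962) and turned to 0.0529 on log2(TPM + 1). Spry4 (ENSMUSG00000024427) was the lowest of the 10 genes, at 8.08 ± 2.66 CPM in WT and 6.39 ± 2.80 CPM in RGECO, on 33 to 113 counts a library. Its log2 fold change of -0.35 ± 0.30 (adjusted p = 0.563) had the widest interval, 0.502-fold to 1.23-fold.

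Spred1 (chromosome 2: 117121374 to 117182279, GRCm38) encodes a membrane-anchored inhibitor that brings the Ras inactivator neurofibromin to Ras. It ranged from 25.9 CPM through a median of 47.9 to 63.3 CPM in WT and was 39.97, 44.7, 37.4, 31.0 and 45.4 CPM in RGECO replicates 1, 2, 3, 5 and 6. The RGECO range lay wholly inside the WT range. The log2 fold change was -0.18 ± 0.20 (adjusted p = 0.654), and 0.0548 with the Malat1 share of each library as a covariate (adjusted p = 0.844).

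**Figure D3:**
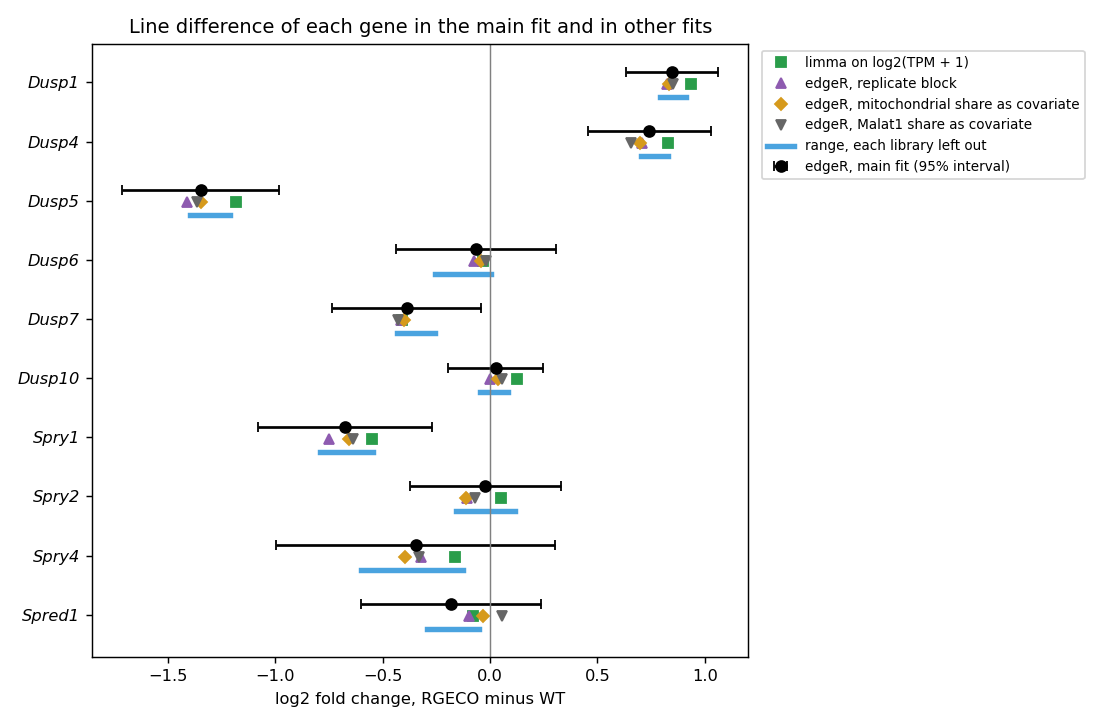
Log2 fold change (RGECO minus WT, horizontal axis) of the 10 genes: black points and bars, edgeR estimate and 95% interval; coloured symbols, other fits; blue bars, range over the 11 fits that each leave out 1 library. Dusp1 at 0.85, Dusp4 at 0.74 and Dusp5 at -1.35 keep their sign in every fit shown, while the symbols of Dusp10, Spry2 and Spred1 fall on both sides of 0.

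On TPM, which allows levels of different genes to be compared, Dusp10 at 70.7 ± 10.4 TPM and Dusp1 at 67.5 ± 9.02 TPM were the highest of the 10 genes in WT and overlapped each other. Spry2 followed at 42.3 ± 5.65 TPM, then Dusp5 at 20.0 ± 1.07 TPM and Dusp4 at 16.0 ± 1.39 TPM, each separated in range from the gene above it. Dusp7, Dusp6, Spred1 and Spry1 lay between 12.9 and 9.37 TPM on average with overlapping neighbours, and Spry4 was lowest at 2.06 ± 0.594 TPM. In RGECO Dusp1 stood alone at the top with 130 ± 21.6 TPM, above Dusp10 at 77.8 ± 16.2 TPM without overlap. Dusp4 came next after Spry2 at 29.3 ± 2.88 TPM and overlapped Spry2 at 45.02 ± 12.2 TPM. Dusp5, at 8.58 ± 2.44 TPM, came after Dusp6, Spred1 and Dusp7 in order of mean, and each neighbouring pair from Dusp6 down to Spry1 overlapped.

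The spread within a line also differed from gene to gene. The coefficient of variation of CPM was larger in RGECO than in WT for 6 of the 10 genes, among them Spry2 (28.1% against 11.1%). That number was 4 without RGECO replicate 6, 5 without RGECO replicate 1 and 7 without WT replicate 1. Without its high library, RGECO replicate 6, the value for Dusp6 went from 30.04% to 7.96%, below the 12.8% of WT, and without RGECO replicate 5 that for Dusp5 went from 24.5% to 4.70%, below the 12.96% of WT. Spry4 turned too, to 30.4% without RGECO replicate 6 and 32.7% without RGECO replicate 1, against 32.97% in WT. It was smaller in RGECO for Spred1 (14.9% against 30.2%) and Dusp4 (7.61% against 19.6%). These differences in spread were not tested.

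In some genes the level varied with the composition of the libraries, though adjusted permutation p-values were at best just under 0.05. Other differences between libraries that go with these shares were not tested. The share of counts in mitochondrial genes was 0.204% to 1.68% in WT and 0.298% to 1.33% in RGECO, with means of 0.986% and 0.698% (two-sided exact permutation p = 0.372), and the share of Malat1, a nuclear RNA, was 0.579% ± 0.264 and 0.397% ± 0.224 (exact permutation p = 0.251). After each line's mean was subtracted, Spred1 followed the mitochondrial share over 11 libraries (Pearson r = 0.857, Spearman rho = 0.809; permutation within lines, p = 0.00266 and 0.00492; adjusted over 20 relations, 0.0502 and 0.0492). The Pearson r was 0.749 without WT replicate 2 and RGECO replicate 6, the libraries farthest from the median share, and 0.861 within WT alone. Spry2 went against the mitochondrial share (r = -0.649, rho = -0.809; permutation p = 0.00833 and 0.00242, adjusted 0.0502 and 0.0484; r = -0.696 without the same libraries). Spred1 also followed the Malat1 share (r = 0.772, rho = 0.645; permutation p = 0.00624 and 0.0147, adjusted 0.0502 and 0.0743; r = 0.606 without WT replicate 2 and RGECO replicate 3, and 0.942 within WT). Dusp4 went against the Malat1 share (r = -0.722, rho = -0.655; permutation p = 0.0100 and 0.0149, adjusted 0.0502 and 0.0743; r = -0.708 without the same pair of libraries). With the mitochondrial share as a covariate the line differences of Dusp1, Dusp4 and Dusp5 were 0.83, 0.70 and -1.345, and with the Malat1 share 0.85, 0.66 and -1.37, all past the threshold. Against log2 total counts, after the same subtraction, r was 0.741 for Spry1, 0.639 for Dusp6, 0.602 for Dusp5 and -0.695 for Spry2. It was -0.456 to 0.427 for the remaining genes. The shallowest libraries were RGECO replicates 5 and 1, with 5881622 and 7480487 counts. The relations with depth were not tested, and depth was not used as a covariate.

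**Figure D4:**
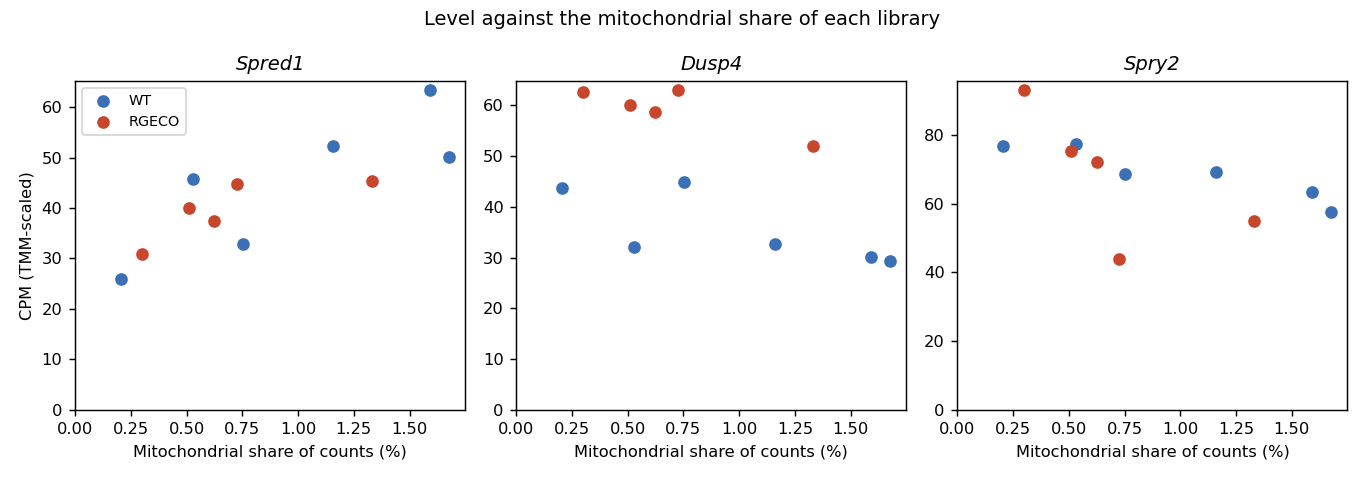
TMM-scaled CPM (vertical axes, from 0) of Spred1, Dusp4 and Spry2 against the mitochondrial share of counts (percent) in WT (blue) and RGECO (red) libraries. Spred1 is higher and Spry2 lower in libraries with a higher share, and Dusp4 is higher in every RGECO library than in any WT library at all shares.

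After the line means were subtracted, 27 of the 45 pairs of the 10 genes (60%) had a positive correlation, with a median r of 0.181, and 22.2% had an r above 0.5. The same values were 50.1%, 0.00116 and 22.2% over all pairs of 7884 tested genes whose mean log2 CPM was 4 or more. Spry1 and Spry4, at 3.93 and 2.91, lie below that cut but are in the 45 pairs. The closest pair was Dusp5 and Dusp7 (r = 0.779, rho = 0.827; permutation p = 0.00153 and 0.00441, adjusted over 45 pairs 0.0688 and 0.198; r = 0.804 without the libraries farthest from the Dusp5 median). Dusp4 and Spred1 were the most opposed (r = -0.851, rho = -0.809; permutation p = 0.0108 and 0.0148, adjusted 0.242 and 0.332; r = -0.669 likewise from Dusp4). The genes whose levels followed Dusp6 most closely over the 11 libraries, after the same subtraction, were Vps39 (r = 0.962), Psmd10 (0.853), Fggy (0.830), Kif3a (0.801) and Mgat2 (0.792). Those most like Spry4 were Specc1 (0.884), Ptpdc1 (0.866), Pdgfrl (0.847), Ubap2l (0.846) and Mta3 (0.835). These were the highest of 7883 and 7884 correlations and are given as a description, and none of them is among the 10 genes.

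The other MAP kinase phosphatases and Sprouty relatives gave no call. Of 6 tested, 0 rose and 0 fell, with a median log2 fold change of -0.06, and 3 had an unadjusted p under 0.05 by edgeR's test. The log2 fold change was positive in 3 and negative in 3. Uncalled genes of this list are named outside the rule for named genes. The p38 and JNK phosphatase genes Dusp16 and Dusp8 differed by 0.12 and 0.05 on the log2 scale (adjusted p = 0.495 and 0.879). Dusp9, an ERK-selective phosphatase gene, was at -1.20 (adjusted p = 0.0675) on low levels of 6.61 ± 3.21 CPM in WT and 2.90 CPM in RGECO. Dusp2, an inducible nuclear phosphatase gene, was at -0.82 (adjusted p = 0.0809). Spred3 leaned the other way, at 1.39 to 3.92 TPM in WT and 2.60 to 8.94 TPM in RGECO, with overlapping ranges. Of 12 atypical dual-specificity phosphatases tested, 0 rose and 0 fell, with a median of 0.05 and 3 at an unadjusted p under 0.05, and Dusp15 was at 0 in all libraries.

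Among receptor tyrosine kinases and their ligands, upstream of the 10 genes, 0 of 25 tested rose and 10 fell. That is 40%, against 8.35% of all genes tested (3.42% higher and 4.93% lower). The median log2 fold change was -0.44 beside -0.01 for all genes, and Kit and Ntrk2 were at 0 in all libraries. Fgfr4, the FGF receptor of differentiating muscle, fell from 17.4 ± 4.54 CPM to 3.47 ± 1.78 CPM, a log2 fold change of -2.31 (adjusted p = 3.57e-04). Pdgfrb, a PDGF receptor that is also in the fibroblast marker list, had a log2 fold change of -1.59 and fell too (adjusted p = 1.03e-05). Fgfr2 was at -2.91 (adjusted p = 0.0141) and Fgf9, an FGF ligand, at -2.04 (adjusted p = 0.0332), both on few counts in RGECO, with means of 0.527 and 0.488 CPM against a floor of 3 counts at 0.252 to 0.510 CPM. Fgf9 lost its call on log2(TPM + 1) (adjusted p = 0.143) and without RGECO replicate 1, 2 or 6 (adjusted p = 0.0745, 0.0935 and 0.0860), and it passed the low-count filter in 6 of the 11 fits that leave out a library, with a call in 3. Outside the rule for named genes and chosen after their values were seen, Egfr fell by 1.18 (adjusted p = 3.23e-04), and Fgfr1, the highest of Fgfr1 to Fgfr4 on TPM, fell by 0.44 (adjusted p = 0.0157; 0.0667 without RGECO replicate 2, 0.0513 without RGECO replicate 6 and 0.131 on log2(TPM + 1)).

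In the cascade that links receptors to ERK, 2 of 30 genes tested rose and 2 fell, 13.3% against 8.35% of all genes, with a median of 0.01. The Ras relative Rras2 rose from 123 ± 18.2 CPM to 200 ± 19.4 CPM, a log2 fold change of 0.70 (adjusted p = 0.00149), and the adaptor Grb2 by 0.34 (adjusted p = 0.0343). The scaffold Ksr1 fell by 0.60 (adjusted p = 0.00543) and the transcription factor Ets2 by 0.56 (adjusted p = 0.00621). In the p38 and JNK cascade 0 of 16 genes rose and 2 fell, 12.5% against 8.35% of all genes, with a median of -0.02. The 2 were the kinases Map3k1 at -0.87 and Map2k3 at -0.42 (adjusted p = 0.0266 and 0.0466). Grb2 and Map2k3 kept their calls in 1 each of the 11 fits that leave out a library (adjusted p up to 0.0723 and 0.132). Map3k1 lost its call when WT replicate 4 or 5 was left out (adjusted p = 0.0568 and 0.0620), and when RGECO replicate 1 or 2 was (0.0637 and 0.0548). On log2(TPM + 1) Ksr1, Grb2, Map3k1 and Map2k3 did not pass (adjusted p = 0.0785, 0.283, 0.507 and 0.154), and with all 12 libraries Rras2, Ksr1, Ets2, Grb2 and Map2k3 did not (adjusted p = 0.222, 0.0818, 0.121, 0.698 and 0.261).

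Immediate-early and other ERK-responsive genes, the class to which the nuclear phosphatase genes belong, moved in both directions. Of 31 tested 3 rose and 9 fell, 38.7% against 8.35% of all genes, with a median log2 fold change of -0.30. Egr3, an immediate-early transcription factor, fell from 33.8 ± 6.82 CPM to 9.27 ± 0.940 CPM, a log2 fold change of -1.86 (adjusted p = 1.03e-05). The orphan receptor Nr4a3 at -1.57, Egr2 at -1.07 and the AP-1 subunit Fosb at -0.82 fell as well (adjusted p = 0.00180, 0.00218 and 0.00733; Fosb 0.0741 on log2(TPM + 1)). Cyclin D1 (Ccnd1) rose from 109 ± 11.2 CPM to 232 ± 44.7 CPM, a log2 fold change of 1.09 (adjusted p = 7.58e-05). The growth-restraining gene Btg2 rose by 0.67 (adjusted p = 8.52e-04; 0.486 with all 12 libraries) and the ETS factor Etv4 by 0.74 (adjusted p = 0.0262). The Etv4 call was lost without WT replicate 1, 4 or 6 (adjusted p = 0.0553, 0.0513 and 0.0529) and without RGECO replicate 1 or 3 (adjusted p = 0.0662 and 0.0680).

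Promoter letters of the kind shown for Dusp1 and Dusp5 were sought in the immediate-early list too. RefSeq windows were at hand for 5 of the 9 genes that fell, and the CArG box was in 2 of them, Egr2 and Srf. Of the 16 genes with a window that were not called, 1 held a CArG box (Zfp36, log2 fold change -0.23, adjusted p = 0.495) and 1 the cyclic AMP response element (Maff, 0.07, adjusted p = 0.890). Of the 3 that rose 1 had a window, Btg2, and it held the cyclic AMP response element of Dusp1. Only the windows and the exact letters were searched, so sites outside a window or with other letters were missed. Fos, for example, was counted as lacking a CArG box on its window alone. Egr1, Egr3, Ier2 and Myc were among the genes with no window. The counts therefore cannot decide whether CArG boxes were more frequent in the genes that fell. Srf itself, which encodes the factor that recognises CArG boxes and was singled out after its value was seen, was at -0.79 (adjusted p = 0.0260; 0.126 on log2(TPM + 1), and it kept its call in 5 of 11 fits that leave out a library, with adjusted p up to 0.0791). Over all tested genes with a window, 7.48% of 147 genes with a CArG box were lower in RGECO and 2.72% higher, beside 4.88% and 3.26% of 9540 genes without one. For the cyclic AMP response element, 3.31% of 302 genes with it were higher and 1.99% lower, beside 3.25% and 5.02% of 9385 without. The 11 lower genes with a CArG box include Dusp5, Egr2 and Srf. The 10 higher genes with the cyclic AMP response element include Dusp1 and Btg2. The shares therefore contain the genes already named and lend them no separate support. They are a description and were not tested.

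**Figure D5:**
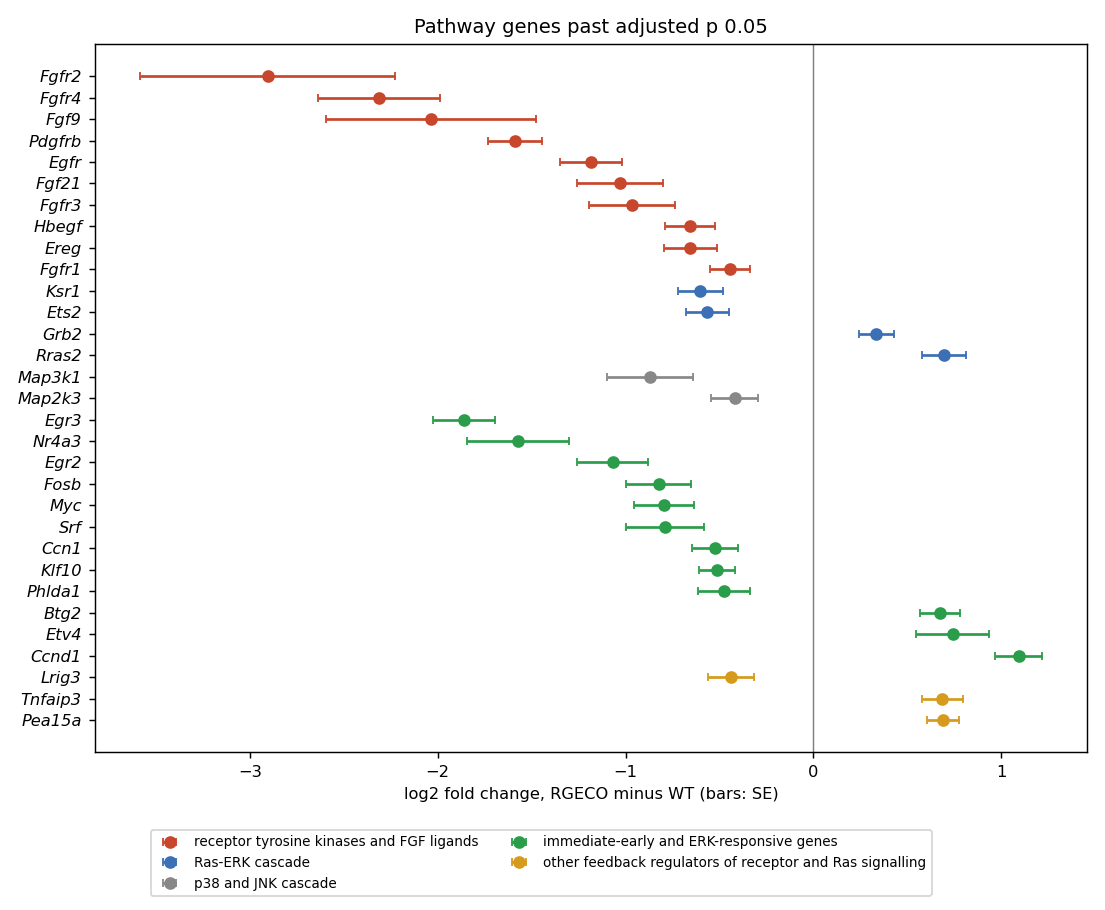
Log2 fold change (RGECO minus WT, horizontal axis, bars give SE) of the genes past adjusted p 0.05 in 5 lists around MAP kinase signalling, coloured by list. All 10 receptor and ligand genes shown lie below 0, while the immediate-early list has 9 genes below 0 and 3 above.

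Of 22 other feedback regulators of receptor and Ras signalling 2 rose and 1 fell, 13.6% against 8.35% of all genes. Their median log2 fold change was -0.05. Pea15a, whose product holds ERK in the cytoplasm, rose from 163 ± 11.005 CPM to 263 ± 14.8 CPM, a log2 fold change of 0.69 (adjusted p = 1.50e-04). Tnfaip3, a ubiquitin-editing inhibitor of NF-kappaB signalling, rose by 0.69 (adjusted p = 0.00101), and both calls were lost with all 12 libraries (adjusted p = 0.357 and 0.0835). Lrig3, a transmembrane protein of the family that regulates growth factor receptors, was at -0.44 (adjusted p = 0.0382), kept its call in 1 of 11 fits that leave out a library (adjusted p up to 0.103) and did not pass on log2(TPM + 1) or with all 12 libraries (adjusted p = 0.246 and 0.206).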

How the data were processed

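The authors deposited estimated counts per gene (not normalised, need not be whole) and TPM per gene, as merged Salmon output, per the file headers. Libraries of poly(A) RNA had 14 PCR cycles and were read as 50-base pairs, per the labels' protocols. The submitters' processing notes list BWA 0.7.12-r1039, bedtools 2.25.0, STAR, Salmon, mm10, hg19 and GRCm39 without roles. The sources used here give no annotation release or strand setting.

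Estimated counts were rounded and fitted in edgeR 4.0.16 (R 4.3.3; filterByExpr, TMM, robust glmQLFit and glmQLFTest) with no block. The library with fewer than 1000000 counts was left out. Alternatives used edgeR with DESeq2 size factors, DESeq2 1.42.0, no low-count filter, all 12 libraries, each library left out, replicate block, the mitochondrial or Malat1 share (log2) as covariate, and limma 3.58.1 (robust, with a mean-variance trend) on log2(TPM + 1) or log2(TPM + 0.1). Coefficients of variation with a library left out were added after seeing the data. Scripts were tested on simulated data. Fold changes on log2(TPM + 1) understate those of low genes. The floor of 3 counts covers counting error only. Replicates were compared in 25 same-line pairs. Chi-square per gene was 7.62 (WT replicates 4 and 6) to 81.16 (WT replicates 2 and 6), and all were counted separately.

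Named genes are the 10 members; from each pathway list all called genes, or with more than 8 the 4 largest in each direction; and the 5 genes most correlated with Dusp6 and with Spry4. Members and lists were chosen with earlier results of these data known. Gene positions come from GENCODE M21 (GRCm38) and promoters from RefSeq (GRCm38.p6), not from the authors' build.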

Additional observations from a re-analysis of the deposited data

Results flagged for a closer look

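In 50 groups of libraries checked (the levels of the 10 genes on CPM and TPM, the mitochondrial and Malat1 shares, and 3 ratios, each in each line), 7 had a library farther from the others than Dixon's 95% limit allows, where chance flags about 1 group in 20. All 7 are in RGECO. Dusp1 was highest in RGECO replicate 1, at 210 CPM against 179 CPM in the next library, and at 169 TPM against 125 TPM. In RGECO replicate 5, the shallowest library, Dusp5 was lowest at 8.75 CPM against 16.1 CPM in the next, and Dusp7 at 17.2 CPM against 22.6 CPM. In the same library the Dusp1 to Dusp5 ratio of TPM was highest at 26.02 against 15.5, and the Dusp4 to Dusp5 ratio at 6.41 against 3.51. Dusp6 was highest in RGECO replicate 6, at 34.7 CPM against 21.7 CPM. Levels and ratios of the same gene in the same library are not independent of each other.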

How the results depend on the processing

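Dusp1, Dusp4 and Dusp5 kept their direction and their call in all 10 other settings and in all 11 fits that leave out a library, with log2 fold changes over the latter of 0.79 to 0.91, 0.70 to 0.83 and -1.40 to -1.21. With all 12 libraries the adjusted p of Dusp1 was 0.0498. Spry1 lost its call on log2(TPM + 1) (-0.55), on log2(TPM + 0.1) (-0.62) and on log2(TPM + 1) without a filter (-0.55), and ranged from -0.79 to -0.54 with a library left out, so the number of genes called lower among the 10 was 1 in each of these TPM fits and 1 to 2 with a library left out. The cause was not tested. Uncalled differences that changed sign were those of Spry2 (0.0529, 0.0532 and 0.0529 in the 3 TPM fits; -0.16 to 0.12 with a library left out), Dusp10 (-0.0487 with all 12 libraries, -0.0022 under the replicate block; -0.0458 to 0.0855 with a library left out), Dusp6 (-0.26 to 0.0033 with a library left out) and Spred1 (0.0548 with the Malat1 share as covariate). Against 1112 genes called in all, the DESeq2 Wald test called 1674, limma on log2(TPM + 1) 605 (344 higher and 261 lower, against 456 and 656), on log2(TPM + 0.1) 587 (330 and 257), and on log2(TPM + 1) without a filter 258 (140 and 118). The mitochondrial share as covariate gave 2784 (1390 and 1394), the Malat1 share 2272, and leaving out a library 785 to 1140. The replicate block called 777 genes and the same 4 of the 10, and not Lrig3, Grb2, Map3k1, Map2k3, Etv4 or Fgf9. Same-numbered libraries of the lines had correlations of deviations of -0.153 to 0.364 over 5 pairs, and 2 of 10 libraries correlated best with their own number. With 5 pairs this cannot decide whether same-numbered libraries shared a batch. On log2(TPM + 1) without a filter Ets2, Etv4, Fgfr2, Nr4a3 and Rras2 did not pass (adjusted p = 0.0808, 0.120, 0.0723, 0.0632 and 0.0658), nor did Etv4 without the low-count filter (0.0642). Low counts limit the precision for Spry4, Fgfr2 and Fgf9, among others.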
